A study of Drosophila melanogaster with 6 samples.

Results

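The genes foraging (for), pale (ple) and arginine kinase 1 (Argk1) of the fruit fly Drosophila melanogaster act in larval movement, and each was read by 1 probe of a one-colour expression microarray. A probe was taken where its identifier, without version, was a RefSeq accession, symbol or synonym of one of the 3 genes. That gave 3 of the 32162 gene probes on the array. The probes of ple and Argk1 were found by the accessions NM_057550 and NM_001104086. The probe of for was found only by the cDNA clone name GM08338, which the RefSeq gene table lists as a synonym with a library prefix, so that its name rests on that clone. A further 21498 probes carry FlyBase transcript identifiers, nearly all of them without a match to a symbol here, and may hold other probes of the same genes, which were not analysed here.

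The irradiated group comprised 3 samples. Its larvae were exposed from the first instar to gamma rays at a chronic dose rate of 16.7 mGy/h, and the dose in the labels is 0.1 Gy. The control group comprised 3 samples of larvae that received 0 Gy. Both groups were whole bodies of the wild-type strain Oregon-R, grown at 20 larvae to a vial, with an age of 5 days in the labels, and each sample was hybridised to an array of its own. By its title the series asks whether this irradiation changes gene expression and makes larvae move more, and the values here bear on the first question only, since no measure of movement is among them.

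The 3 genes stand at different points between nerve and muscle. The gene for encodes a kinase activated by cyclic GMP, and its natural rover and sitter variants differ in how far larvae travel while feeding. The gene ple encodes tyrosine hydroxylase, which makes the precursor of dopamine and sets the rate of dopamine synthesis in neurons, and which also serves hardening and darkening of the cuticle. Argk1 encodes an enzyme that stores and returns high-energy phosphate as phosphoarginine, the insect counterpart of creatine kinase in muscle.

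Well above background were 75.8% to 81.1% of the gene spots of an array, and the probes of the 3 genes passed this mark on all 6, with no outlier or saturation flag. One slide held the 3 controls and irradiated 1, and a second slide held the other two irradiated arrays. With 3 arrays in a group the precision is limited. The labels do not state separate vials or cultures within a group, so the spread between arrays of a group may be technical. In limma the variance of each feature was also moved toward a value shared by all features, whatever their signal. The SD within groups was 0.29 for for, 0.23 for ple and 0.35 for Argk1, beside a median of 0.11 over all features. The limma SEs and intervals of these genes are thus narrower than their own spread alone would give. Levels below are log2 of the processed signal minus log2 of the 75th percentile of the signals on that array, and a difference is irradiated minus control on this scale. In whole larvae, fewer cells of a type and less RNA per cell cannot be told apart.

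None of the 3 genes differed between irradiated and control larvae beyond the spread between arrays. The measured level of for was 0.883 times that of controls, that of ple 0.916 times and that of Argk1 1.04 times. For each gene the irradiated and control arrays overlapped. In limma, 0 of the 3 genes passed an adjusted p of 0.05 0 had an unadjusted p under 0.05, and 0 were at least 2-fold apart. Over all 18780 features tested, 0 (0%) passed the adjusted threshold, 1864 (9.93%) had an unadjusted p under 0.05, 134 (0.714%) were at least 2-fold apart, and 3264 (17.4%) had groups that did not overlap.

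The cGMP-dependent kinase gene for gave processed signals of 17.5, 23.9 and 17.1 in irradiated 1, 2 and 3, against 16.6, 18.9 and 25.0 in controls 1, 2 and 3. As levels these were -6.37, -6.00 and -6.55 in irradiated larvae and -6.44, -6.09 and -5.85 in control larvae. The lowest array was irradiated 3 and the highest control 3, and the other 2 arrays of each group lay between them. The mean level was -6.31 ± 0.28 in irradiated larvae and -6.13 ± 0.30 in control larvae (SD, n = 3 each). The difference was -0.18 ± 0.20 SE, with a 95% interval from -0.69 to 0.33 (limma, adjusted p = 0.833). On the linear scale the interval runs from 0.620 to 1.26 times the control level. An exact two-sided permutation test over the 6 arrays gave p = 0.5, where 3 against 3 arrays allow no p below 0.1.

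The probe of for was dim. Its raw spot signal was between 66.5 and 79 over a local background between 24 and 30, and the processed signal was lower than the raw one by between 49.9 and 56.6 units. The raw signal spanned 1.19-fold over the 6 arrays and the processed signal 1.51-fold. The error that the scanner software gives for the processed signal was between 12.1% and 16.6% of the signal. This is 0.21 log2 units on average, beside an SD between arrays of the same group of 0.29. With normexp on the raw signal in place of the processed signal, the difference was -0.12 ± 0.091 SE (limma, adjusted p = 0.620). That setting adds an offset of 50 to each corrected signal, which compresses the ratios of dim probes. Its smaller SE is therefore not a sign of greater precision.

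**Figure D1:**
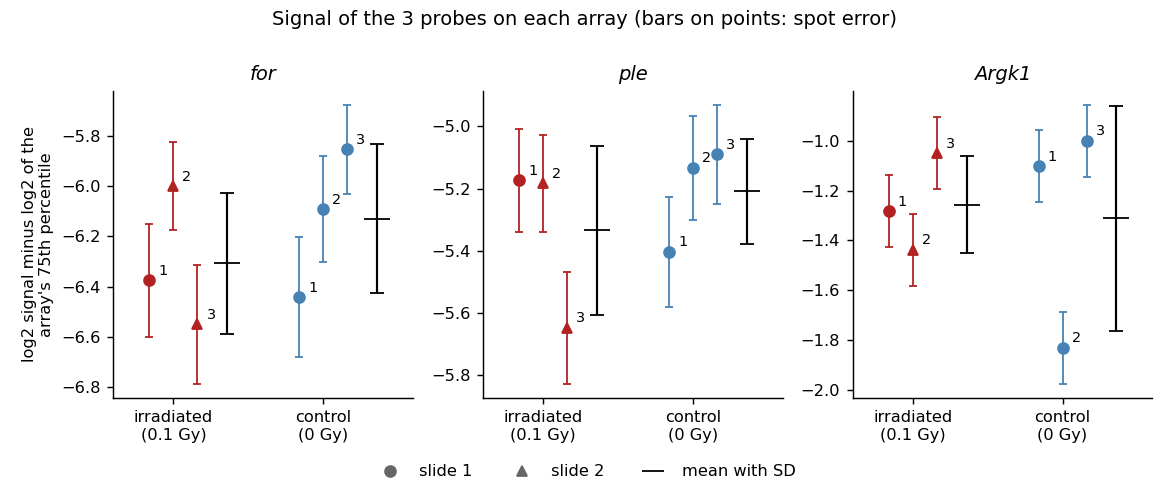
Level of the 3 probes on each array, as log2 signal minus log2 of the 75th percentile of that array, with irradiated arrays in red, control arrays in blue and the replicate number beside each point. Bars on the points are the spot error of the scanner software, black marks are the group mean with its SD (n = 3), and circles and triangles are the 2 slides. For each gene the groups overlap, and for Argk1 control 2 lies lowest, at -1.83.

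The tyrosine hydroxylase gene ple gave processed signals of 40.2, 42.0 and 32.1 in irradiated 1, 2 and 3, against 34.1, 36.7 and 42.4 in controls 1, 2 and 3. The levels were -5.17, -5.18 and -5.65 in irradiated larvae and -5.40, -5.13 and -5.09 in control larvae. Irradiated 1 and irradiated 2 lay within the range of the controls, and irradiated 3 lay below all controls. The mean level was -5.33 ± 0.27 in irradiated larvae and -5.21 ± 0.17 in control larvae (SD, n = 3 each). The difference was -0.13 ± 0.16 SE, with a 95% interval from -0.53 to 0.28 (limma, adjusted p = 0.860). The interval runs from 0.693 to 1.21 times the control level. The exact two-sided permutation p was 0.5.

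The sign of the ple difference rested on irradiated 3. Without that array the difference was 0.031, and irradiated 1, the array on the slide of the controls, stood 0.035 above their mean. The probe was dim as well, with raw signals between 84.5 and 97 over a local background between 26 and 29. Its spot error averaged 0.17 log2 units, beside an SD within groups of 0.23.

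The arginine kinase gene Argk1 gave processed signals of 596, 564 and 776 in irradiated 1, 2 and 3, against 671, 362 and 723 in controls 1, 2 and 3. The levels were -1.28, -1.44 and -1.05 in irradiated larvae and -1.10, -1.83 and -1.0004 in control larvae. All 3 irradiated arrays lay between control 2, which was lowest, and control 3, which was highest. Control 2 stood 1.31-fold below the next array, and the controls alone spanned 1.78-fold, against 1.31-fold in irradiated larvae. The mean level was -1.26 ± 0.20 in irradiated larvae and -1.31 ± 0.45 in control larvae (SD, n = 3 each). The difference was 0.055 ± 0.24 SE, with a 95% interval from -0.56 to 0.67 (limma, adjusted p = 0.979). The interval runs from 0.680 to 1.59 times the control level. The exact two-sided permutation p was 0.9.

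The Argk1 difference turned negative when 1 of 2 arrays was left out. It was -0.20 ± 0.13 SE without control 2 (limma, adjusted p = 0.753) and -0.049 without irradiated 3. The raw signal ran from 392 to 838 over a local background between 26 and 29.5, and the raw and processed signals both spanned 2.14-fold over the 6 arrays. Control 2 was thus lowest in the raw signal too, at 392. The authors' deposited table gives Argk1 ratios to its median over the arrays of 0.906, 1.03 and 1.13 in irradiated 1, 2 and 3. In controls 1, 2 and 3 the ratios were 0.974, 0.632 and 1.25, with control 2 lowest. These ratios come from the same spots under another scaling of the arrays, so they are not a second measurement.

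The 3 genes differed in how their spread compared with that of other features of like signal. For for and ple, the SD within groups was close to the median of features within 0.5 log2 units of their mean level, at 0.29 beside 0.30 over 1863 features for for and 0.23 beside 0.23 over 1930 features for ple. For Argk1 the SD was 0.35 beside a median of 0.083 over 1983 features, and 96.1% of those features had a smaller SD. That SD rested in large part on control 2. Without that array the SD of Argk1 was 0.16 beside a median of 0.082, and 85.4% of the 1983 features had a smaller SD. The SD of ple was 0.14 without irradiated 3, beside a median of 0.23. Among all features the SD of for, ple and Argk1 exceeded that of 82.7%, 75.8% and 86.7%. Each of the 3 genes was 1 probe in 1 spot per array, whereas some of the other features are means of several probes or spots. Averaging tends to lower an SD, and how far it moved these medians and shares was not tested. The spot error of Argk1 was between 10.004% and 10.018% of the signal, or 0.14 log2 units. The SD was 2.42 times the mean spot error for Argk1, 1.37 times for for and 1.35 times for ple. That error is a value given by the scanner software, and for Argk1 it exceeded the median SD of 0.083. The ratios therefore do not show how far the spread exceeded measured noise. These are descriptions of 6 arrays with no test.

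**Figure D2:**
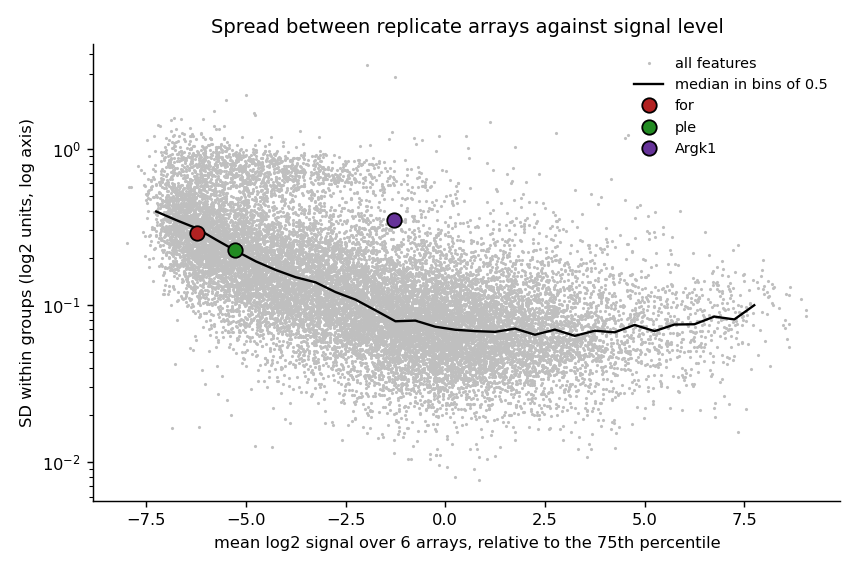
SD within groups (log2 units, log axis) against the mean level over the 6 arrays (log2 relative to the 75th percentile) for all 18780 features, with the 3 genes as coloured points and the median in bins of 0.5 log2 units as a line. The points of for and ple lie near the line, at SDs of 0.29 and 0.23, and that of Argk1 lies above it, at 0.35. The median SD of features within 0.5 log2 units either side of the Argk1 level, a wider window than a bin of the line, was 0.083.

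The levels of for and ple ran in a similar order over the arrays, both lowest in irradiated 3 and highest in control 3. Pearson's r between them was 0.82 and Spearman's rho 0.83 over the 6 arrays (exact permutation p = 0.0264 and 0.0583). The p of r was 0.396 after Benjamini-Hochberg adjustment over the 15 relations computed, and r was 0.67 over the 4 arrays left without the 2 of most extreme for level. Both probes are dim and share the background correction and scaling of each array, and the part of these in the relation was not tested. For Argk1, r was -0.27 to for and -0.45 to ple (exact permutation p = 0.631 and 0.390, adjusted p = 0.729 for both). Over 4 arrays, without the 2 of most extreme for or ple level, these were -0.74 and 0.34, so that neither relation held its value. Over the 4 arrays of the slide with both groups, r was 0.79 between for and ple, -0.016 between for and Argk1 and -0.27 between ple and Argk1, and the other slide holds 2 arrays, too few for a value.

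The other 12 relations set the 3 genes against the share of spots above background, the 75th percentile of the array and the roX RNAs lncRNA:roX1 and lncRNA:roX2, which are made in males. Their smallest adjusted p was 0.698 in exact permutation tests. The level of lncRNA:roX1 was 0.48, 1.34 and 1.67 in irradiated 1, 2 and 3, against 1.51, 1.73 and 0.83 in controls 1, 2 and 3. The level of lncRNA:roX2 was -2.42, -1.78 and -1.34 in irradiated 1, 2 and 3, against -1.53, -1.44 and -2.40 in controls 1, 2 and 3. It was thus highest in irradiated 3, where for and ple were lowest, and near its lowest in control 3, where they were highest. It was lowest in irradiated 1, where neither for nor ple was highest. Its r was -0.43 to for and -0.64 to ple (adjusted p = 0.729 and 0.698, exact permutation tests). Over 4 arrays, without the 2 of most extreme lncRNA:roX2 level, r was -0.70 and -0.60. For lncRNA:roX1, which was highest in control 2, r was -0.22 to for and -0.51 to ple (adjusted p = 0.729 for both, exact permutation tests). The part of the sex of the larvae in the levels of for and ple was not tested. The largest in size among the 12 was r = 0.67 between the 75th percentile and Argk1, which became -0.83 over 4 arrays, without the 2 of most extreme percentile, and was 0.94 over the 4 arrays of the shared slide. On those 4 arrays the share of spots above background had r of 0.98 to for and 0.85 to ple, beside 0.52 and 0.077 over all 6. These values and the 0.94 are the largest of the 15 relations on that slide. They carry no test, and the highest of many r values over 4 arrays are high by choice. The part of the share of spots above background in the levels of for and ple was not tested.

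The named features most like each gene were taken by Pearson's r over the 6 arrays among 334 features with a symbol. They are given as a description, since the highest of many r values over 6 arrays are high by choice. For for these were CR14798 (r = 0.95), Atxn7 (0.95), CG12343 (0.94), MESK2 (0.92) and CG14694 (0.92). Atxn7 encodes a subunit of the SAGA chromatin complex. CR14798 was about as dim as for, with a mean level of -6.36 in irradiated larvae and -6.06 in control larvae, and spanned 0.84 log2 units over the arrays. CG12343 ran in the same order as for over all 6 arrays, with a range of 0.14 beside the 0.70 of for. Atxn7 spanned 0.12, and its lowest and highest arrays, control 1 and irradiated 2, were not those of for. Least like for were the cytochrome P450 gene Cyp9c1 (r = -0.91), the centriole gene asl (-0.90) and asRNA:CR43637 (-0.81).

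For ple the most like were CG33978 (r = 0.99), CG7720 (0.96), ptc (0.94), CG31038 (0.94) and CG12343 (0.93). The gene ptc encodes the receptor of the Hedgehog signal. Its level was -4.81, -4.84 and -5.27 in irradiated 1, 2 and 3, against -5.23, -4.68 and -4.65 in controls 1, 2 and 3. As for ple, irradiated 3 was lowest and control 1 next. CG12343 was thus among the 5 most like both for and ple. The least like were CG1428 (r = -0.96), CG31125 (-0.94) and CG14339 (-0.88).

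For Argk1 the most like were cmet (r = 0.90), ND-39 (0.89), Hakai (0.86), epsilonTry (0.80) and asRNA:CR43257 (0.80). The gene cmet encodes a kinesin of the kinetochore, ND-39 a subunit of mitochondrial complex I, Hakai a ubiquitin ligase and epsilonTry a digestive trypsin. All 5 were lowest in control 2, as was Argk1. Their ranges over the arrays, from 0.21 for ND-39 to 0.38 for asRNA:CR43257, were under the 0.83 of Argk1. ND-39 stood at 4.70 in control 2, against 4.90 in control 3. The least like were Sdhaf3 (r = -0.94), snoRNA:Psi28S-2566 (-0.92) and CG18233 (-0.87), and all 3 were highest in control 2. None of the 23 features named here for likeness passed the adjusted threshold in limma.

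**Figure D3:**
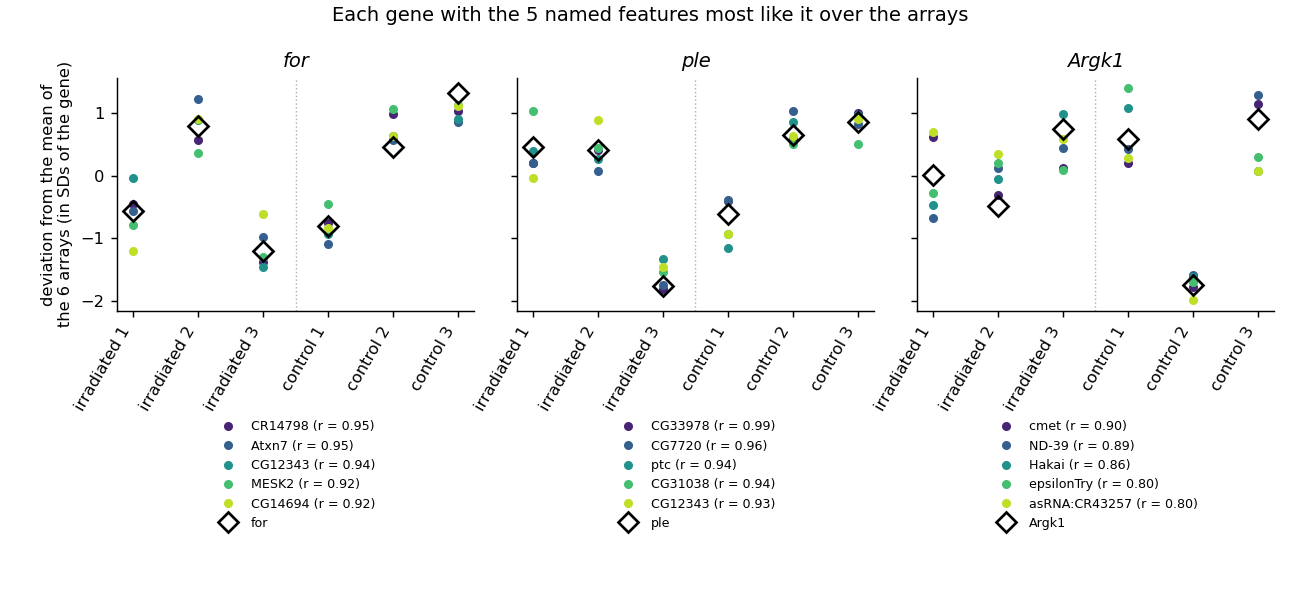
Deviation of each gene from its mean over the 6 arrays, in SDs of that gene (open diamonds), with the 5 named features of highest Pearson's r (filled points), irradiated arrays left of the dotted line and control arrays right of it. The points of ple and its like features are lowest in irradiated 3, and those of Argk1 and its like features in control 2.

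Few other genes of these pathways could be identified on the array. Of 23 genes of dopamine synthesis, transport and reception, 18 genes of cGMP signalling and 10 of phosphagen and adenylate energy supply, ple, for and Argk1 were the only ones tested with a symbol. Of 69 genes placed in a nerve list, 3 had a probe with a symbol and 1 was tested, the nicotinic acetylcholine receptor subunit gene nAChRalpha6. Its level was -4.96, -5.29 and -5.18 in irradiated 1, 2 and 3, against -5.21, -4.92 and -4.84 in controls 1, 2 and 3. Irradiated 1 and irradiated 3 lay within the range of the controls and irradiated 2 below it. The difference was -0.15 ± 0.13 SE (limma, adjusted p = 0.759). Of 40 muscle genes, Mef2 and Strn-Mlck had a probe with a symbol that did not pass the filter for signal, and 0 were tested. Sh and scrib, which were placed in the nerve list, did not pass it either.

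With 1 member measured per list, the values do not describe dopamine, cGMP or muscle genes as groups. Of 4 genes measured from these lists, for, ple and nAChRalpha6 were measured lower in irradiated larvae and Argk1 higher. Of all features, 50.5% were measured lower and 49.5% higher, with a median difference of -0.0018. None of the 21 larval or 12 adult stage markers could be named on the array, so the stage in the labels was not checked against markers.

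**Figure D4:**
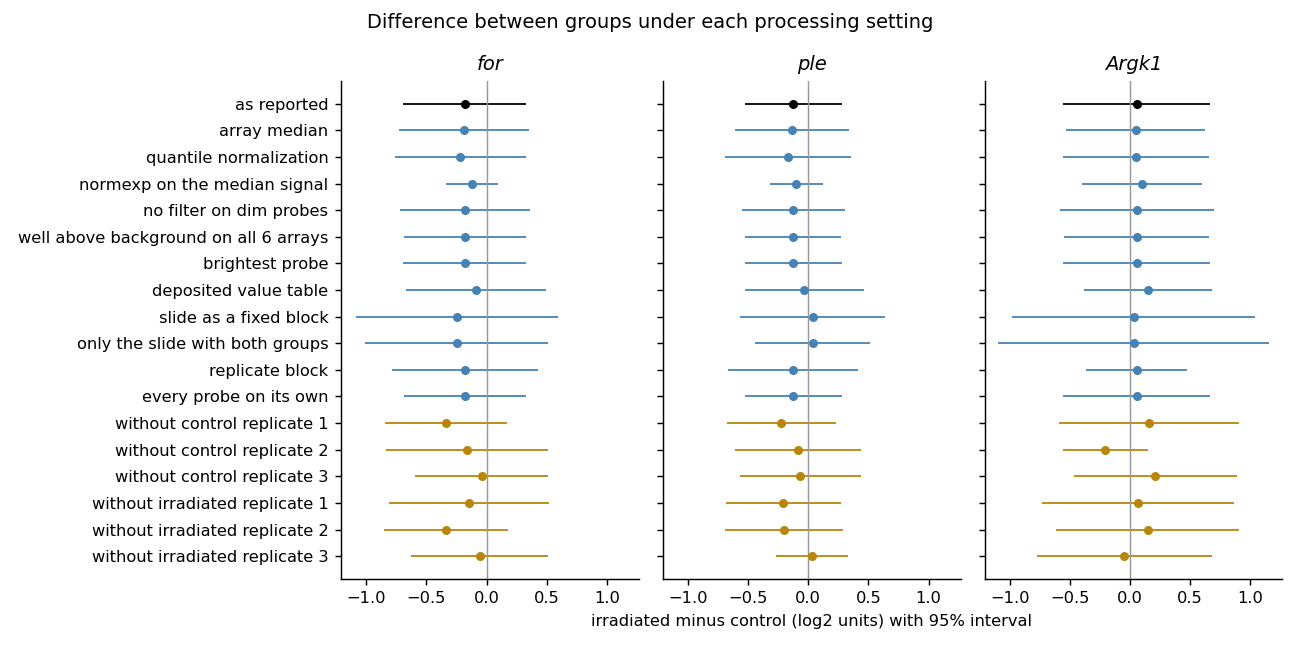
Difference between irradiated and control larvae (log2 units, points) with its 95% interval (bars) for the 3 genes under the reported setting (black), alternative settings (blue) and with 1 array left out (ochre). Every interval includes 0. The point lies above 0 for ple with slide as a block, on the shared slide and without irradiated 3, and below 0 for Argk1 without control 2 or irradiated 3.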

How the data were processed

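RNA of whole larvae was hybridised in 1 colour (Cy3), 1 sample per array. The deposited scanner files give the intensity of each spot, quantified with Agilent Feature Extraction 11.5.1.1 per the file headers, while version 9.1 stands in the submitters' processing notes. That software corrected the processed intensity for background within each array, and nothing was scaled between arrays. The authors' deposited value table holds a ratio per probe with a median of 1 over the 6 arrays. It was used as an alternative. Its scaling between arrays is not stated in the sources used.

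Control spots and spots flagged as outliers were left out, and the processed signals were put on a log2 scale relative to the 75th percentile of each array, which stood between 1288 and 1607. Probes with a share of at least 0.5 of their spots well above background on all 3 arrays of 1 group were kept (23818). Probes of the same symbol or identifier were averaged into 18780 features without a missing value, 337 of them with a symbol. Identifiers were matched without version to the RefSeq gene table of the Release 6 assembly, which gave 1 symbol to 546 probes, 393 of them by accession. No coordinates are given because the array was annotated on Release 5. The sequences of the probes were not used here, so which of the 13 RefSeq transcripts of for, 3 of ple and 7 of Argk1 each probe reads is not known.

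Irradiated and control arrays were compared in limma 3.58.1 (lmFit, then eBayes; R 4.3.3) by a two-sided test without a block. Benjamini-Hochberg adjustment ran over all features. Exact permutation tests were run over the 6 arrays. The script was tested on simulated data. The genes, lists and rules were chosen with earlier results of these data known. The genes named were the 3 genes, the 5 named features of highest and the 3 of lowest Pearson's r with each, tested members of the lists and the roX RNAs.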

Additional observations from a re-analysis of the deposited data

How the results depend on the processing

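Under 11 alternative settings and with each of the 6 arrays left out, no difference of for, ple or Argk1 passed an adjusted p of 0.05, and the smallest unadjusted p was 0.145 for for, 0.257 for ple and 0.19 for Argk1. Not every setting could move a difference. Each gene had 1 probe that passed on all 6 arrays, so changes of filter or probe averaging returned the same difference by construction. So did the replicate block, as each number had 1 array per group. Both slide settings reduced to irradiated 1 against the controls. The difference of for was negative throughout, from -0.25 to -0.086 over the settings and from -0.34 to -0.041 with 1 array left out. That of ple was 0.035 with slide as a fixed block and 0.035 on the slide shared by both groups, and ran from -0.22 to 0.031 with 1 array left out. That of Argk1 ran from 0.029 to 0.15 over the settings and from -0.20 to 0.21 with 1 array left out. The number of features called was 0 except with the deposited value table, which called 7, none of them for, ple or Argk1, and leaving out each array gave 0 to 0. In that table the median of all features moved to 0.091, and for, ple and Argk1 stood at -0.086, -0.033 and 0.15. Each of the 3 had moved by about as much as the median. For these genes the table thus holds the same differences under another scaling of the arrays. Why that table called 7 features was not tested. The sign changes followed from which arrays entered, and why those arrays differed was not tested. At least 2-fold apart were 134 features, but 509 with no filter on dim probes, 305 with slide as a block and 26 with normexp, and those at an unadjusted p under 0.05 numbered 1864, but 763 with the deposited table. The replicate block gave the same differences of -0.18, -0.13 and 0.055 and 0 calls. The deviations of irradiated and control arrays of like number correlated at -0.27, -0.20 and -0.60, so the numbers were not taken as pairs. The mean raw signal was not a column used here, so normexp was run on the median signal. Its offset of 50 compresses the ratios of dim probes. The spread with each array left out was chosen after seeing the data. The dim signal of for and ple, and 3 arrays per group, limit what could be detected.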
